A study of Homo sapiens with 6 samples.

Results

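The RNAs described here are 8 long noncoding RNAs, transcripts that are not translated into protein: MALAT1, NEAT1, KCNQ1OT1, MEG3, H19, MIAT, NORAD and OIP5-AS1. They were taken by symbol from the gene lists of the deposited matrices, where all 8 of 8 were present among 36601 genes. Their levels were followed in 6 single-cell RNA-seq libraries of the human neuroblastoma cell line SK-N-BE(2)-C, whose cells carry the features of sympathetic neurons. The libraries were made with Seq-Well S3, in which each cell settles in a tiny well beside a bead that tags its RNA, and fell into 3 groups of 2: cells given DMSO, the solvent; cells given TSA, the usual abbreviation of trichostatin A, which occupies the catalytic pocket of histone deacetylases (HDACs); and cells given E6R. By its title the series concerns inhibition of an HDAC complex by a route other than the enzyme's activity. What E6R is made of is not given in the sources used here, nor are the doses and the times of treatment. All groups share 1 cell line, and nothing in the labels says whether the replicates were separate cultures, so p-values measure the spread between these libraries, which may be technical.

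Long noncoding RNAs act as RNA, and where they sit in the cell is part of what they do. MALAT1 gathers in nuclear speckles, bodies rich in splicing factors, and NEAT1 is the scaffold of paraspeckles, bodies that hold RNA-binding proteins in the nucleus. KCNQ1OT1, MEG3 and H19 come from imprinted loci, where only the copy from a given parent is transcribed; KCNQ1OT1 stays at its own locus and silences neighbouring genes on the same chromosome, MEG3 is largely nuclear and is made from the maternal chromosome beside the paternally expressed DLK1, and H19 is an exported RNA that carries a microRNA and lies beside IGF2. MIAT, also called Gomafu, forms a nuclear domain of its own in neurons. NORAD and OIP5-AS1, the human counterpart of Cyrano, work mainly in the cytoplasm: NORAD binds Pumilio proteins, which repress mRNAs, and OIP5-AS1 holds a site that pairs with the microRNA miR-7 and leads to its destruction.

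The sequences by which 4 of these RNAs are known were read from the annotated transcripts (GENCODE 29 on GRCh38), and each is printed 5′ to 3′ in the sense of the RNA. MALAT1 and the long form of NEAT1 end without an ordinary poly(A) tail, in a triple helix that T-rich and A-rich tracts build and that protects the end of the RNA. The capitals mark those tracts, 2 T-rich and 1 A-rich of 19 bases in MALAT1 (chr11:65506021-65506124, plus strand, 353 bases before the annotated end) and 2 T-rich and 1 A-rich of 11 bases in NEAT1 (chr11:65445445-65445540, plus strand, at the annotated end).
MALAT1: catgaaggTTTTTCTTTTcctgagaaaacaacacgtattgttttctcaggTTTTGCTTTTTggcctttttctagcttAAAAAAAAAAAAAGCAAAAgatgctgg
NEAT1: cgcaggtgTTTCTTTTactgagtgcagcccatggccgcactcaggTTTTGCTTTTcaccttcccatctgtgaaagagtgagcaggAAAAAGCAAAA
The A-rich tracts are shown because Seq-Well beads capture RNA by its A tail, and these ends have a genomic A tract in its place; which tract was captured cannot be read from UMI counts per gene.

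NORAD holds the Pumilio motif TGTANATA at 15 places on the sense strand of its 5339 bases, 2.81 per kb. Of 5143 annotated lncRNA transcripts of 1000 bases or more, 18.8% hold the motif at all and 0.0583% hold it as densely. At 3 places on chromosome 20 (minus strand) motifs lie 9 bases apart, start to start, and these are printed with the motifs in capitals: chr20:36049497-36049525, chr20:36048300-36048328 and chr20:36047664-36047692, in the order of the RNA.
NORAD pair 1: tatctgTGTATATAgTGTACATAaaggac
NORAD pair 2: ctatacTGTATATAtTGTATATAtaacgg
NORAD pair 3: gtgctgTGTATATAgTGTATATAagcgga
Among the other members NEAT1 has 6 such motifs, KCNQ1OT1 9, MEG3 and OIP5-AS1 1 each, and MALAT1, MIAT and H19 0. MIAT, known for repeats of the splicing branch point motif, holds TACTAAC 7 times, 0.69 per kb; 6.12% of the same lncRNA transcripts hold that motif and 0.739% hold it as densely.

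OIP5-AS1 has 3 matches to the seed of miR-7-5p, bases 2 to 8 of the microRNA, and 17.9% of lncRNA transcripts hold at least 1. At the match shown (chr15:41300573-41300599, plus strand) a further 14 bases pair without a break on the other side of a short gap. At the first match along the RNA the longest further run is 5 bases. At the last match no further run reached the shortest length searched for. Aligned without a gap and with the seed included, 14 bases pair at the last match and 13 at the match shown. Capitals mark the paired bases in the RNA and the seed in the microRNA (RefSeq, GRCh38.p14).
OIP5-AS1: gAACAACAAAATCACcaatGTCTTCCa
hsa-miR-7-5p: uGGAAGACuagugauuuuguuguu

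Barcodes with at least 500 genes and at most 20% of UMIs (unique molecular identifiers, 1 per captured RNA molecule) from the 13 mitochondrial genes (MT- genes) were taken as cells. This left 17589 cells, 1861 to 3946 per library, with 4206366 to 26180262 UMIs per library and a median of 1054 to 1880 UMIs per cell. The E6R libraries stood apart in their MT- share, 1.55% and 1.51% of UMIs against 5.83% and 6.20% under DMSO and 6.08% and 9.71% under TSA. Between 11 and 58 cell barcodes were shared by any pair of libraries, 299 cells (1.70%) in all. The 11 neuroblastoma markers summed to 3578 to 6422 CPM (counts per 1000000 UMIs) in every library, so the labelled cell type was met. Summed markers of red cells reached at most 3.22 CPM, of epithelial cells 1.49 and of immune cells 17.2. Fibroblast and endothelial markers, summed, were higher in replicate 1 of every group. Of the single markers only COL1A2 went the other way, and only under DMSO (0.850 and 5.36 CPM). The fibroblast list summed to 136 and 23.3 CPM under DMSO, 159 and 88.5 under TSA, and 311 and 27.1 under E6R, and the endothelial list to 49.5 and 4.02, 11.5 and 4.53, and 65.6 and 1.88; their part in the results was not tested.

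**Figure D1:**
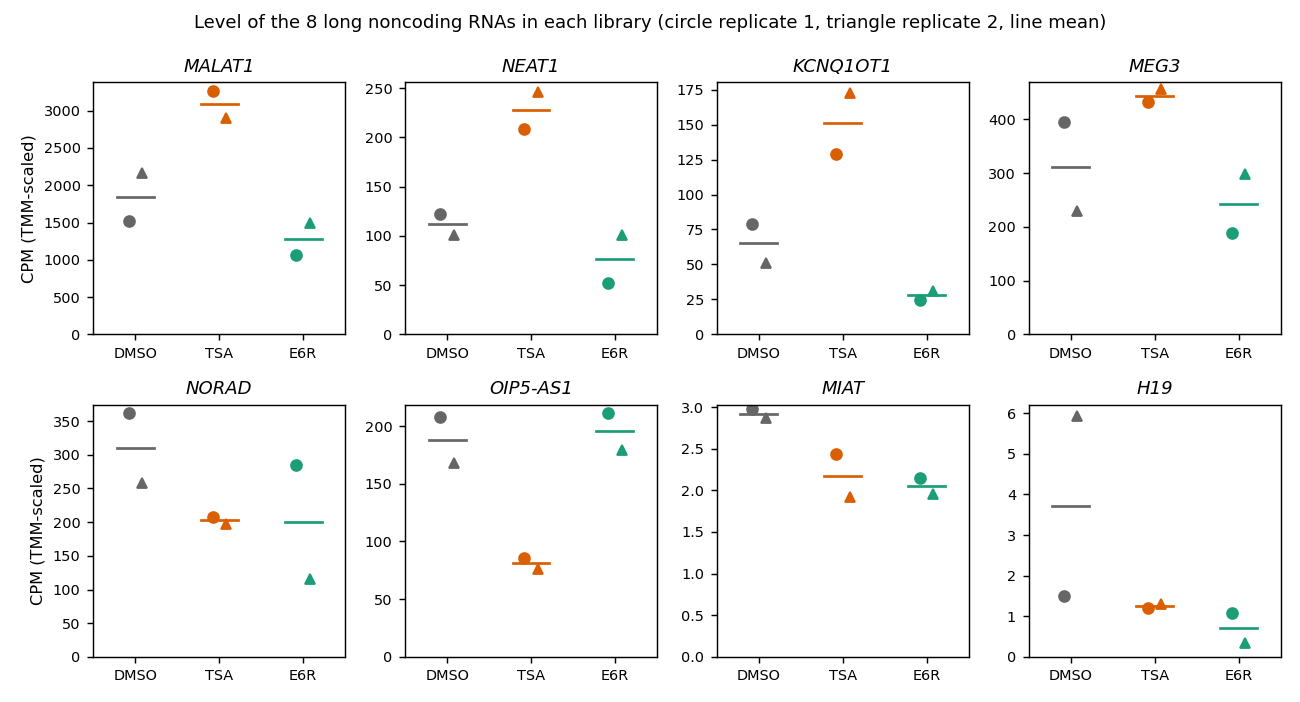
Level of each of the 8 long noncoding RNAs in the 6 libraries, in CPM with TMM-scaled library sizes; each point is 1 library (circle replicate 1, triangle replicate 2) and the line is the mean of 2. MALAT1, NEAT1 and KCNQ1OT1 are highest in both TSA libraries, OIP5-AS1 is lowest in both, and MIAT and H19 stay under 6 CPM.

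Together the 8 RNAs made up 0.301% and 0.325% of UMIs under DMSO, 0.400% and 0.350% under TSA, and 0.183% and 0.225% under E6R. Among 14597 annotated lncRNA genes, ranked by mean CPM, MALAT1 was rank 2, MEG3 rank 7, NORAD rank 9, OIP5-AS1 rank 14, NEAT1 rank 17 and KCNQ1OT1 rank 25, while MIAT was rank 890 and H19 rank 1071. Levels of different genes were compared per kb of the longest annotated transcript. On that scale the mean over the 6 libraries was 237 CPM per kb for MALAT1, 44.5 for NORAD, 25.6 for MEG3, 17.6 for OIP5-AS1, 6.09 for NEAT1, 0.887 for KCNQ1OT1, 0.806 for H19 and 0.235 for MIAT. Of neighbours in this order, only MALAT1 and NORAD, and NEAT1 and KCNQ1OT1, had library ranges that did not overlap. Counts of UMIs captured at an A tail need not grow with transcript length. In CPM not divided by length MEG3 (333) stood above NORAD (238) and MIAT (2.38) above H19 (1.89), and the low level of KCNQ1OT1 per kb reflects division by 91667 annotated bases.

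MALAT1 and NEAT1, the RNAs of speckles and paraspeckles, lie beside each other on chromosome 11 (plus strand), MALAT1 (ENSG00000251562) at chr11:65497688-65506516 and NEAT1 (ENSG00000245532) at chr11:65422774-65445540, with 52.1 kb between them. MALAT1 stood at 1519 and 2162 CPM under DMSO, 3270 and 2905 under TSA and 1063 and 1488 under E6R. All TSA values lay above all DMSO values, and both E6R values lay below both DMSO values. The log2 fold change of TSA over DMSO was 0.75 (SE 0.27, edgeR quasi-likelihood test with Benjamini-Hochberg adjustment over all 16763 genes tested, adjusted p = 0.0678) and did not pass 0.05; it passed in 8 of 23 alternatives, with adjusted p from 0.018 to 0.242. E6R against DMSO gave -0.53 (SE 0.26, adjusted p = 0.343), and E6R against TSA gave -1.28 (SE 0.27, adjusted p = 0.00798), which passed. MALAT1 was therefore 2.42-fold lower under E6R than under TSA, a call lost in 4 of 23 alternatives. These were without TSA replicate 1 (adjusted p = 0.0536), without the 5% of cells with most UMIs (0.0506), in cells thinned to 1000 UMIs (0.0645) and in cells with 2 to 6% MT- UMIs (0.623).

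NEAT1 stood at 122 and 101 CPM under DMSO, 209 and 246 under TSA, and 51.8 and 101 under E6R. The TSA libraries were the highest, and E6R replicate 2 reached the level of DMSO replicate 2. NEAT1 rose 2.04-fold under TSA (log2 1.03, SE 0.31, adjusted p = 0.0415), from 112 ± 14.8 to 228 ± 26.4 CPM (SD, n = 2 per group). The call was lost in 11 of 24 alternatives. Among these were the fits that left out any 1 of the 4 DMSO and TSA libraries, with log2 values between 0.82 and 1.21. E6R against DMSO gave -0.54 (SE 0.31, adjusted p = 0.399). NEAT1 was lower under E6R than under TSA by a log2 value of -1.57 (SE 0.32, adjusted p = 0.00659), or 0.0505 without TSA replicate 2. Its short and long isoforms share their start and were not separated in these counts.

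KCNQ1OT1 (ENSG00000269821; chr11:2608328-2699994, minus strand) is transcribed against KCNQ1, within whose span it lies. It had 79.2 and 50.9 CPM under DMSO, 129 and 173 under TSA, and 24.6 and 31.2 under E6R, so the groups did not overlap. KCNQ1OT1 rose 2.32-fold under TSA (log2 1.21, SE 0.27, edgeR adjusted p = 0.0143). That call was lost in 4 of 24 alternatives, among them without DMSO replicate 2 and without TSA replicate 2. E6R against DMSO gave a log2 value of -1.22 (SE 0.28), and its adjusted p of 0.205 did not pass. The difference between E6R and TSA was the largest among the 8 RNAs, -2.43 (SE 0.28, adjusted p = 0.000874), 5.39-fold, and held in all 24 alternatives run. KCNQ1 itself, on the other strand, had a mean of 0.0902 CPM. The strand setting of the authors' counting is not given in the sources used here, so unspliced KCNQ1 RNA cannot be told apart from KCNQ1OT1.

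MEG3 (ENSG00000214548; chr14:100779410-100861031, plus strand) had 394 and 230 CPM under DMSO, 432 and 455 under TSA, and 189 and 298 under E6R. Its TSA values were the highest, and the DMSO and E6R values overlapped. No comparison passed in the test as set: the log2 values were 0.51 (SE 0.31, adjusted p = 0.247) for TSA and -0.36 (SE 0.31, adjusted p = 0.581) for E6R against DMSO, and -0.87 (SE 0.31, adjusted p = 0.0595) for E6R against TSA, which passed in 6 of 24 alternatives (adjusted p from 0.0216 to 0.997). H19 (ENSG00000130600; chr11:1995176-2001470, minus strand) was close to the limit of detection, with 7 and 31 UMIs in the DMSO libraries, 16 and 15 under TSA and 17 and 9 under E6R. That is 1.49 and 5.93 CPM under DMSO, 1.22 and 1.31 under TSA, and 1.07 and 0.339 under E6R. In E6R replicate 1 the 17 UMIs lay in 4 cells, 1 of which held 13. DMSO replicate 2 was high and the other 5 libraries were low. The adjusted p was 0.175, 0.224 and 0.418 for TSA against DMSO, E6R against DMSO and E6R against TSA.

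MIAT (ENSG00000225783; chr22:26646428-26676475, plus strand) was as scarce, with 14 to 52 UMIs per library and 1.92 to 2.97 CPM. Its values were 2.97 and 2.87 CPM under DMSO, 2.43 and 1.92 under TSA and 2.15 and 1.96 under E6R. MIAT passed in no comparison, with adjusted p of 0.528, 0.608 and 0.894 in the same order. MIATNB, an RNA annotated on the same strand and overlapping it, had a mean of 5.44 CPM, more than MIAT.

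NORAD (ENSG00000260032; chr20:36045622-36050960, minus strand), the Pumilio-binding RNA, had 362 and 259 CPM under DMSO, 208 and 198 under TSA, and 284 and 116 under E6R. The TSA libraries lay below both DMSO libraries, and the E6R libraries spanned the TSA values. The log2 values were -0.61 (SE 0.39, adjusted p = 0.261) for TSA, which passed in 2 of 24 alternatives (0.0298 and 0.0475), and -0.64 (SE 0.39, adjusted p = 0.428) for E6R against DMSO. E6R against TSA gave -0.02 (SE 0.39, adjusted p = 0.968), a value whose sign changed in 13 of 24 alternatives.

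OIP5-AS1 (ENSG00000247556; chr15:41283990-41309737, plus strand), the RNA with the miR-7 site, moved opposite to NEAT1 and KCNQ1OT1. It had 208 and 168 CPM under DMSO, 85.9 and 76.5 under TSA, and 212 and 180 under E6R. The TSA libraries lay far below the rest, and the DMSO and E6R libraries overlapped. OIP5-AS1 fell 2.32-fold under TSA (log2 -1.21, SE 0.21, adjusted p = 0.00518) and was 2.41-fold higher under E6R than under TSA (log2 1.27, SE 0.21, adjusted p = 0.00285). Between E6R and DMSO the log2 value was 0.06 (SE 0.20, adjusted p = 0.906). The fall under TSA held in 23 of 24 alternatives and missed the threshold without TSA replicate 2 (adjusted p = 0.0665; range over the alternatives 6.51e-06 to 0.0665), and the difference between E6R and TSA held in all 24. OIP5-AS1 overlaps OIP5 on the other strand, which had a mean of 8.57 CPM and also fell under TSA, by 1.15 on the log2 scale (adjusted p = 0.0432). Because the strand setting of the counting is not given, RNA from the stretch they share cannot be told apart.

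Counted together, 3 of the 8 RNAs changed under TSA, with NEAT1 and KCNQ1OT1 higher and OIP5-AS1 lower, where 29.7% of all 16763 genes tested did (16.2% higher and 13.5% lower). The median log2 value of the 8 was 0.04, against -0.01 over all genes. Under E6R against DMSO 0 of 8 passed, and 0% of all genes. At an unadjusted p under 0.05 these were 2 of 8, KCNQ1OT1 and H19, against 2913 genes (17.4%). DESeq2 called 431 genes, KCNQ1OT1 among them, and edgeR without a low-count filter called 1095, with KCNQ1OT1 and H19 among them. E6R against TSA gave 4 of 8, with MALAT1, NEAT1 and KCNQ1OT1 lower and OIP5-AS1 higher, where 38.2% of genes passed (18.7% higher and 19.5% lower). Among the same 110 lncRNA genes, 37.3% were higher and 18.2% lower. The 3 comparisons share libraries in pairs and are not independent. With total counts in place of TMM the median of all genes under TSA moved from -0.01 to -0.32, and the calls went from 2720 higher and 2255 lower to 1717 and 3361. KCNQ1OT1 and OIP5-AS1 kept their calls under that scaling (log2 0.89 and -1.52), and NEAT1 did not (0.71, adjusted p = 0.120).

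**Figure D2:**
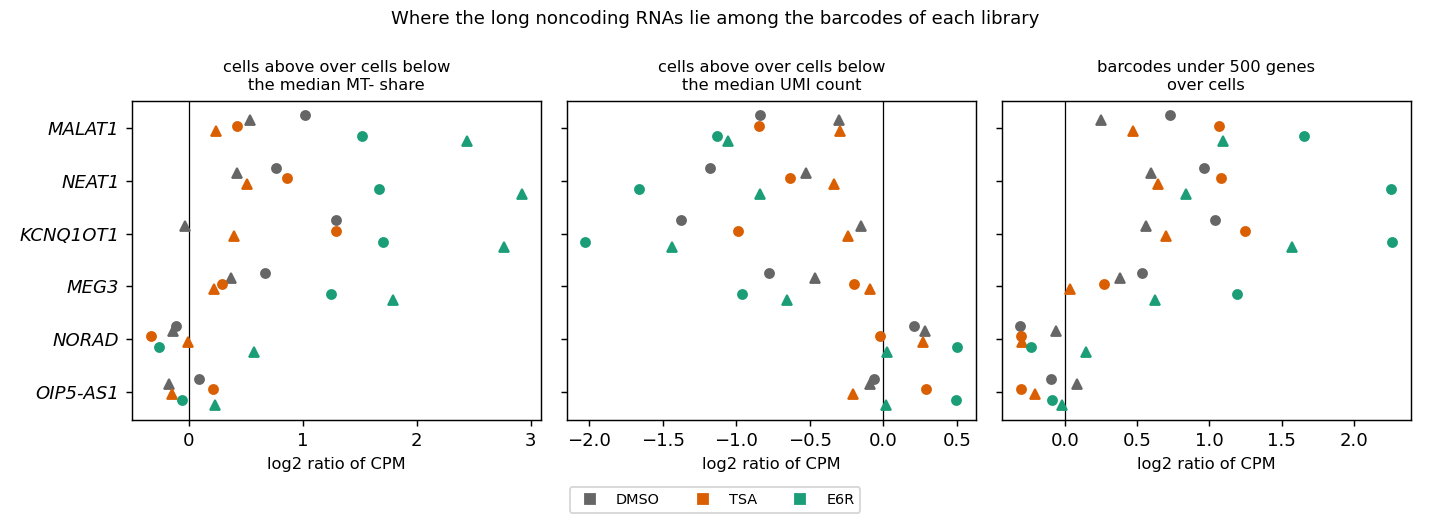
Log2 ratio of CPM for 6 of the RNAs within each library, from left to right: cells above over cells below the library's median MT- share, cells above over cells below its median UMI count, and barcodes with under 500 genes over cells (grey DMSO, orange TSA, green E6R; circle replicate 1, triangle replicate 2). MALAT1, NEAT1, KCNQ1OT1 and MEG3 are low in UMI-rich cells and high in small barcodes in all 6 libraries, while NORAD and OIP5-AS1 lie on both sides of 0 in every panel.

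Within each library the nuclear RNAs were unevenly spread over the cells. MALAT1 was higher in the cells above the median MT- share than in those below it in 6 of 6 libraries, by a median log2 value of 0.78, and NEAT1 (0.82) and MEG3 (0.52) were too. KCNQ1OT1 was higher in 5 of 6 (median 1.29), DMSO replicate 2 being level at -0.03. The contrast was widest under E6R: MALAT1 stood at 701 CPM below and 2006 above the median in E6R replicate 1, and at 828 and 4507 in replicate 2 (plain CPM, without TMM). In TSA replicate 2, where it was narrowest, MALAT1 stood at 2326 and 2744. NORAD was higher in the MT-rich cells in 1 of 6 libraries (median -0.12) and OIP5-AS1 in 3 of 6 (0.02).

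The UMI count of the cell split the RNAs in the same way. MALAT1, NEAT1, KCNQ1OT1 and MEG3 were lower in the cells above the median UMI count in 6 of 6 libraries, with median log2 values of -0.84, -0.73, -1.18 and -0.56. NORAD was higher there in 5 of 6 (0.24). Barcodes with under 500 genes, too small to be counted as cells, held more of MALAT1, NEAT1, KCNQ1OT1, MEG3 and MIAT per UMI than the cells of the same library in 6 of 6 libraries. The median log2 values were 0.89, 0.90, 1.14, 0.46 and 1.56, the last from few UMIs. NORAD and OIP5-AS1 were higher in the small barcodes in 1 of 6 libraries each (medians -0.27 and -0.09). These are descriptions of barcodes within libraries and carry no test.

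**Figure D3:**
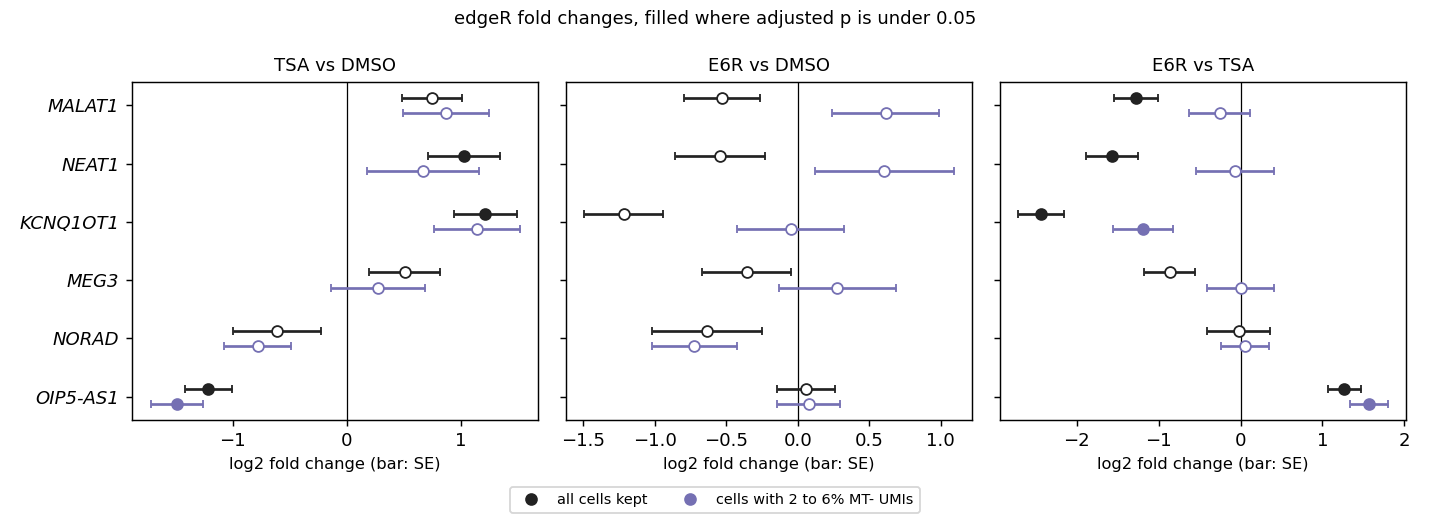
Log2 fold changes of 6 of the RNAs with their SE in the 3 comparisons, from sums over all cells kept (black) and over cells with 2 to 6% MT- UMIs (purple); filled points have adjusted p under 0.05. OIP5-AS1 changes little between the 2 sets of cells, while MALAT1, NEAT1 and MEG3 move from negative to positive for E6R against DMSO.

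Because the MT- share differed between E6R and the other groups, the test was repeated on cells with 2 to 6% MT- UMIs, a window chosen after the data were seen. It kept 349 to 1813 cells per library, with window medians of 4.39% and 4.66% under DMSO, 3.57% and 5.0% under TSA, and 3.04% and 3.32% under E6R. The window lay wholly below the median MT- share of both DMSO libraries (6.73% and 6.44%) and of TSA replicate 2 (9.83%). It lay wholly above that of E6R replicate 1 (1.79%), and that of E6R replicate 2 was 2.38%. So different parts of the libraries were compared, and what this selection did to the values below was not tested. OIP5-AS1 fell under TSA as before (log2 -1.49, adjusted p = 0.00337) and was higher under E6R than under TSA (1.56, adjusted p = 0.00173). KCNQ1OT1 gave 1.14 for TSA over DMSO (adjusted p = 0.052) and remained lower under E6R than under TSA, by a smaller log2 value of -1.19 (adjusted p = 0.0346). For MALAT1 the difference between E6R and TSA was -0.25 (adjusted p = 0.623) and for NEAT1 -0.06 (adjusted p = 0.928), so both calls were lost. NEAT1 under TSA was at 0.67 (adjusted p = 0.329). Against DMSO the E6R values of MALAT1, NEAT1 and MEG3 were positive, 0.62, 0.61 and 0.28, with adjusted p from 0.755 to 0.923, and that of KCNQ1OT1 was -0.05. In plain CPM, MALAT1 in the window stood at 1646 and 2152 under DMSO, 3947 and 2224 under TSA, and 1841 and 3786 under E6R. Its TSA pair and its E6R pair lay further apart there than in all cells, where plain CPM was 3014 and 2505 under TSA and 1066 and 1511 under E6R.

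**Figure D4:**
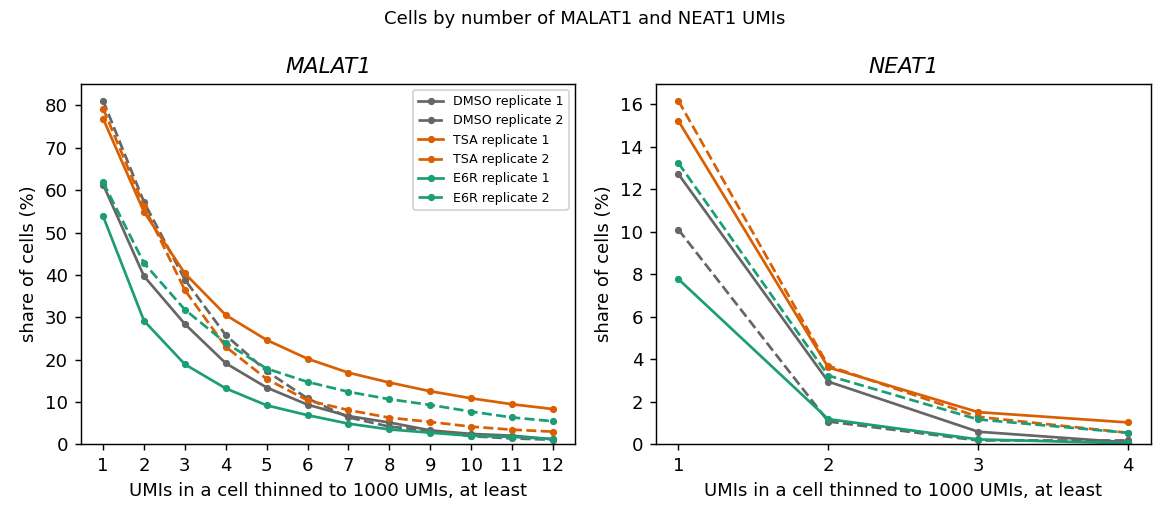
Share of cells with at least a given number of MALAT1 (left) or NEAT1 (right) UMIs, after each cell was thinned at random to 1000 UMIs; lines are the 6 libraries (grey DMSO, orange TSA, green E6R; solid replicate 1, dashed replicate 2). TSA replicate 1 and E6R replicate 2 hold the most cells with 10 or more MALAT1 UMIs.

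Shares of cells with at least 1 UMI were compared after thinning every cell to 1000 UMIs, which left out 503 to 1718 shallower cells per library. MALAT1 was found in 61.3% and 81.2% of DMSO cells, 76.9% and 79.3% of TSA cells and 53.8% and 61.8% of E6R cells; exact 95% binomial intervals, which cover counting error only, reached at most 3 points to either side. Without thinning the means were 81.2% ± 6.13 under DMSO, 90.2% ± 0.321 under TSA and 74.4% ± 0.343 under E6R (SD, n = 2). Cells with 10 or more MALAT1 UMIs made up 2.44% and 1.90% under DMSO, 10.9% and 4.16% under TSA, and 2.00% and 7.72% under E6R. So the share of MALAT1-rich cells in E6R replicate 2 lay between those of the TSA libraries, although a smaller share of its cells held any MALAT1 UMI. NEAT1 was found in 11.4% ± 1.85 of DMSO, 15.7% ± 0.667 of TSA and 10.5% ± 3.86 of E6R cells, and most held 1 UMI: cells with 2 or more made up 1.07% to 3.69% of a library.

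KCNQ1OT1 was found in 7.29% ± 3.75 of thinned DMSO cells, 12.3% ± 1.11 of TSA cells and 4.56% ± 1.04 of E6R cells. MEG3 was found in 24.2% ± 6.34, 29.8% ± 1.47 and 22.4% ± 6.82 of cells in the same order. NORAD was found in 28.4% ± 5.06, 15.1% ± 3.10 and 15.5% ± 6.85, and OIP5-AS1 in 17.9% ± 3.87, 7.10% ± 0.807 and 16.5% ± 1.21. MIAT and H19 were found in 2 to 9 and in 0 to 8 thinned cells per library, too few for a comparison; the 0 was H19 among 1852 cells of TSA replicate 1, which allows up to 0.162% of cells at that thinned depth; unthinned, 15 of 2467 cells of that library (0.608%) held an H19 UMI. The exact two-sided permutation test over libraries cannot go below p = 0.33 with 2 against 2. The exact permutation test gave that value for KCNQ1OT1, NEAT1, MEG3, NORAD and OIP5-AS1 under TSA against DMSO, where the groups did not overlap, and p = 1 for MALAT1, whose groups did. The order of the shares depended on thinning for NEAT1, MEG3, NORAD and OIP5-AS1. Unthinned, NEAT1 was found in 16.3%, 33.4% and 20.7% of DMSO, TSA and E6R cells and MEG3 in 34.8%, 51.8% and 40.6%. Unthinned, NORAD was found in 35.9%, 34.9% and 34.4% of DMSO, TSA and E6R cells and OIP5-AS1 in 26.6%, 21.2% and 36.0%. No cell type that lacks these RNAs was separated here, so the part of free RNA in the shares was not tested.

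The proteins that build the bodies of MALAT1 and NEAT1 were followed as lists taken from general knowledge. Of 20 paraspeckle proteins, 7 fell and 0 rose under TSA, 35% lower where 13.5% of all genes and 18.1% of protein coding genes at 20 CPM or more were lower. The median log2 value was -0.23 against -0.01 over all genes, and the remaining 13 did not pass. HNRNPH3, an RNA-binding protein of paraspeckles, fell from 128 ± 17.8 to 34.1 ± 5.53 CPM (log2 -1.91, adjusted p = 0.00166). SMARCA4, a chromatin remodelling ATPase, fell from 553 ± 167 to 273 ± 26.8 CPM (log2 -1.02, adjusted p = 0.019). NEAT1, their scaffold, rose in the same comparison. Against TSA, 10 of the 20 were higher under E6R and 0 lower, beside 26.3% and 19.9% of protein coding genes at 20 CPM or more, with HNRNPH3 at 2.40 and DAZAP1, another RNA-binding protein, at 1.32 on the log2 scale. Against DMSO 0 of 20 passed under E6R; all 20 had positive values, as had 4988 of the 7402 protein coding genes at that level, with medians of 0.40 and 0.18. PSPC1, a core paraspeckle protein, had 31.4 ± 0.0552 and 58.8 ± 2.46 CPM (log2 0.90, adjusted p = 0.205).

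Of 20 nuclear speckle proteins, 4 rose and 1 fell under TSA (20% and 5%), with a median of 0.09. Of protein coding genes at 20 CPM or more, 21.4% rose and 18.1% fell, also with a median of 0.09. The share that rose was thus close to that of those genes, and the share that fell was smaller. CCNL2, a cyclin of speckles, rose from 58.6 ± 11.2 to 163 ± 14.1 CPM (log2 1.47, adjusted p = 0.00279). THRAP3 rose from 275 ± 36.0 to 487 ± 1.94 CPM (0.82, adjusted p = 0.0193) and its relative BCLAF1 fell from 294 ± 30.6 to 158 ± 22.3 CPM (-0.89, adjusted p = 0.0145). Against TSA, 8 were higher and 2 lower under E6R (40% and 10%, beside 26.3% and 19.9% of those genes), with BCLAF1 at 1.37, and the splicing factors SRSF2 at 1.28 and SRSF1 at 1.25. Against DMSO 0 of 20 passed under E6R (median 0.40); SRSF3 had the smallest adjusted p, 0.205, at a log2 value of 0.85.

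Among 23 proteins known to bind 1 of the 8 RNAs, 7 fell and 2 rose under TSA (30.4% and 8.7%, median -0.22), beside 18.1% and 21.4% of protein coding genes at 20 CPM or more. The largest falls were in IGF2BP1 and IGF2BP3, oncofetal RNA-binding proteins that bind H19, and in AGO2, the protein that carries microRNAs. IGF2BP1 had 117 ± 16.4 CPM under DMSO, 7.40 ± 1.11 under TSA and 143 ± 5.35 under E6R (log2 -3.98 for TSA over DMSO, adjusted p = 0.000489). IGF2BP3 had 99.4 ± 18.3, 16.0 ± 2.07 and 171 ± 16.6 CPM (-2.63, adjusted p = 0.000727). AGO2 had 106 ± 8.29, 26.8 ± 3.10 and 117 ± 18.0 CPM (-1.98, adjusted p = 0.00118), and OIP5-AS1 fell in the same comparison. Against TSA, 10 of 23 were higher and 0 lower under E6R (43.5% higher beside 26.3%), and against DMSO 0 passed (median 0.36), with KHDRBS1, a partner of NORAD, at 0.73 (adjusted p = 0.205).

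Imprinted genes beyond the members moved in both directions under TSA. Of 40 listed, 39 were found and 26 could be tested, of which 6 rose and 5 fell (23.1% and 19.2%, median 0.30). Of all genes tested, 16.2% rose and 13.5% fell, and of protein coding genes at 20 CPM or more 21.4% and 18.1%. The 26 imprinted genes were not limited to that level. PEG10, a paternally expressed gene derived from a retrotransposon, rose from 132 ± 20.8 to 519 ± 140 CPM (log2 1.98, adjusted p = 0.00235). CPA4, a carboxypeptidase, had 8.07 and 0.765 CPM under DMSO and 74.2 and 26.3 under TSA (adjusted p = 0.0323). CDKN1C, a cell cycle inhibitor of the domain that KCNQ1OT1 silences, rose from 0.637 and 0.191 CPM under DMSO to 4.56 and 3.74 under TSA (adjusted p = 0.0309), the first values being a few UMIs. With 1.20 and 0.263 CPM under E6R, CDKN1C passed the low-count filter only because of its TSA libraries. Its place among the imprinted genes tested and its rise are therefore not independent. Against TSA, 5 were higher and 7 lower under E6R (19.2% and 26.9%, beside 18.7% and 19.5% of all genes); MEG9, a noncoding RNA of the MEG3 domain, had 10.1 and 10.3 CPM under TSA and 1.77 and 2.03 under E6R (log2 -2.41, adjusted p = 0.00241). Against DMSO 0 of 26 passed under E6R (median 0.10), and L3MBTL1, a paternally expressed chromatin protein, had the smallest adjusted p, 0.215, at -1.49.

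Of 40 other named long noncoding RNAs, 37 could be tested, and under TSA 10 fell and 1 rose (27% and 2.7%), with a median of -0.64. Of annotated lncRNA genes, 8.56% of the 2723 tested and 33.6% of the 110 at 20 CPM or more fell, and 6.57% and 17.3% rose. CASC15, a neuroblastoma-associated RNA, fell from 47.4 and 15.9 CPM under DMSO to 5.17 and 6.09 under TSA (log2 -2.49, adjusted p = 0.0137). LINC-PINT fell from 4.46 and 3.44 to 0.456 and 0.697 CPM (adjusted p = 0.0102) and NBAT1 from 1.27 and 0.765 to 0.0760 and 0.174 CPM (adjusted p = 0.0313), both low throughout. Against TSA, 18 were higher and 2 lower under E6R (48.6% and 5.41%, beside 37.3% and 18.2% of the lncRNA genes at 20 CPM or more). CASC15 stood at 97.7 and 46.2 CPM under E6R (3.67, adjusted p = 0.00232), and PURPL, at 1.98 and 1.31 CPM under TSA, stood at 0 and 0.0376 under E6R (adjusted p = 0.00345). With 0.212 and 0.574 CPM under DMSO, PURPL passed the low-count filter only through its TSA libraries. Its place among the genes tested and its difference are therefore not independent. Against DMSO 0 of 37 passed under E6R (median 0.25); SNHG8 had 48.4 ± 3.81 and 83.5 ± 7.04 CPM (0.79, adjusted p = 0.205).

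Genes within 200 kb of a member were read next to it, where their mean was 20 CPM or more. There were 21 such genes besides the members, of which 8 rose and 2 fell under TSA, 0 passed under E6R against DMSO, and 3 were higher and 8 lower under E6R than under TSA. Of all protein coding genes at that level, 21.4% rose and 18.1% fell under TSA, and 26.3% were higher and 19.9% lower under E6R than under TSA. Around MALAT1 and NEAT1, 4 of 7 protein-coding neighbours rose under TSA: SIPA1 from 4.20 ± 0.827 to 53.0 ± 11.7 CPM (log2 3.65, adjusted p = 0.00135), FAM89B (1.49, adjusted p = 0.00472), ZNRD2 (1.23, adjusted p = 0.0046) and RELA, a subunit of NF-kappaB (0.92, adjusted p = 0.0201). SIPA1, at 6.33 CPM under E6R, reached a mean of 20 CPM only through its TSA libraries. Its place among the genes counted here and its rise are therefore not independent. MAP3K11 fell from 43.5 ± 12.3 to 17.9 ± 2.82 CPM (-1.28, adjusted p = 0.0112), and POLA2 (0.39, adjusted p = 0.357) did not pass.

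Of the 4 neighbours of OIP5-AS1, 3 rose under TSA, where 21.4% of protein coding genes at that level did. CHP1, 2.1 kb from it on the same strand, rose from 74.1 ± 3.65 to 202 ± 1.47 CPM (log2 1.45, adjusted p = 0.00662). RTF1, a transcription elongation factor (0.69, adjusted p = 0.0327), and NUSAP1, a spindle protein (0.59, adjusted p = 0.0457), rose less, and INO80 gave -0.79 (adjusted p = 0.06). Near MEG3, DLK1 had 460 ± 219, 447 ± 110 and 545 ± 340 CPM under DMSO, TSA and E6R, and MEG8, a noncoding RNA, 133 ± 16.4, 139 ± 10.04 and 91.5 ± 33.9; neither passed in any comparison. Of the 4 neighbours of NORAD, SCAND1 fell under TSA (-1.06, adjusted p = 0.013), while PHF20, EPB41L1 and AAR2 gave -0.15, -0.42 and 0.43 and did not pass. Of the 3 neighbours of MIAT, TFIP11, a splicing factor, rose (0.99, adjusted p = 0.0117), and SRRD (0.30) and TPST2 (0.81) did not pass. TH, the enzyme that starts catecholamine synthesis and lies 162 kb from H19, had 54.1 ± 33.6, 19.1 ± 6.77 and 94.6 ± 83.2 CPM and was higher under E6R than under TSA (2.31, adjusted p = 0.0312). No gene within 200 kb of KCNQ1OT1 reached 20 CPM.

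The genes whose pattern over the 6 libraries lay closest to each member were found among 7514 others with a mean of 20 CPM or more, by the root mean square difference of centred log2 CPM; smaller is more alike. SWI5 (0.0833) and ATP6V0A1 (0.0846) lay closest to MALAT1, against a median of 0.676 over all genes. LPCAT3 (0.116) and NAPA (0.145) lay closest to NEAT1, FBXL18 (0.125) and CEP19 (0.225) to KCNQ1OT1, and RFC2 (0.0327) and SCRIB (0.0971) to MEG3. CDK19 (0.193) and CTDSP2 (0.194) lay closest to NORAD, and TRPM7 (0.0653) and ZFHX4 (0.0705) to OIP5-AS1. For MIAT they were KIAA2026 (0.0796) and TPRA1 (0.0804), and for H19, whose pattern rests on 1 high library, MAST4 (0.661) and KHNYN (0.706). Of the members themselves, NEAT1 was rank 460 for MALAT1 (0.326) and rank 52 for KCNQ1OT1 (0.393), and OIP5-AS1 was rank 6529 for MALAT1 (1.14), so the neighbouring MALAT1 and NEAT1 were not each other's closest pattern.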

How the data were processed

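The authors deposited, for each of the 6 libraries, a matrix of whole-number UMI counts per gene and barcode, not normalized; STARsolo 2.7.9a and GRCh38 are named per the submitters' processing notes. Strand and intron settings, the annotation and the barcode rule are not given in the sources used here. Gene positions came from GENCODE 29 (34616 of 36601 identifiers matched, 94.6%).

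For every library the cells' UMI counts were added up per gene and tested with edgeR 4.0.16 (R 4.3.3): TMM, filterByExpr, quasi-likelihood test, group as the only term, all 6 libraries in 1 fit, Benjamini-Hochberg adjustment over all genes at 0.05. The script was tested on simulated counts with a smaller spread between libraries than in these data, so that test does not show how reliable the calls are here. Replicates compared by chi-square gave 19.7 to 79.3 per degree of freedom, so no pair agreed within counting noise. No doublets were removed; a repeat without the 5% of cells richest in UMIs was made. Alternatives included DESeq2 1.42.0, other scalings and cell filters, thinning and leaving out each library. Named genes were all 8 members, the 2 closest patterns to each, locus neighbours within 200 kb at a mean of 20 CPM or more, and up to 3 called genes per list and comparison with the largest change, otherwise the 1 with the smallest adjusted p; a few genes that this rule names are not reported here. The members and lists were chosen with earlier results of these data known.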

Additional observations from a re-analysis of the deposited data

How the results depend on the processing

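The 8 RNAs were recomputed under up to 24 alternatives each, and 36 of 558 alternative values of single RNAs changed sign. OIP5-AS1 under TSA lost its call in 1 of 24, KCNQ1OT1 in 4 and NEAT1 in 11, while MALAT1 gained a call in 8 of 23 and NORAD in 2 of 24. For E6R against TSA, MALAT1 lost its call in 4 of 23 and NEAT1 in 2 of 24, and MEG3 gained one in 6 of 24. Under TSA against DMSO the number of RNAs called, 3, was 5 without a low-count filter, 1 without the 5% of cells with most UMIs, 1 with 2 to 6% MT- UMIs, and 0 to 4 leaving out 1 library. Genes called, 4975, were 3248 with 2 to 6% MT- UMIs (11954 genes tested) and 1416 to 6028 leaving out 1 library. For E6R against DMSO, genes called, 0, were 1095 without a low-count filter, 431 with DESeq2, 1 in all deposited barcodes, 1 without mitochondrial and ribosomal protein genes, 1 without cells with a shared barcode, and 0 to 3 leaving out 1 library; RNAs called were 2 without a filter and 1 with DESeq2. For E6R against TSA, genes called, 6408, were 4156 in cells thinned to 1000 UMIs, 4140 with 2 to 6% MT- UMIs, and 2628 to 6385 leaving out 1 library; RNAs called, 4, were 2 with 2 to 6% MT- UMIs. The fits on those cells and without a library hold fewer genes or samples; otherwise the cause was not tested. Where 1 library was left out, the lone library of its group was assumed to vary like the other groups. The settings with 2 to 6% MT- UMIs and without shared barcodes were chosen after the data were seen.

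Signs changed as follows, on the log2 scale. For E6R against DMSO, OIP5-AS1 (0.06) gave -0.080 with total counts only, -0.055 without the 5% of cells with most UMIs, -0.11 in thinned cells, -0.0034 after every library was thinned to the smallest total, and -0.046 to 0.35 leaving out 1 library; with 2 to 6% MT- UMIs MALAT1 gave 0.62, NEAT1 0.61 and MEG3 0.28, and MEG3 gave -0.68 to 0.21 leaving out 1 library. MIAT under TSA (-0.42) gave 0.068 with at least 1000 genes per cell. For E6R against TSA, NORAD (-0.02) gave 0.026 with RLE factors, 0.15 with total counts, 0.23 without a filter, 0.061 with DESeq2, 0.00065 with at least 300 genes, 0.0040 with at most 10% MT- UMIs, 0.077 without mitochondrial and ribosomal protein genes, 0.058 with 2 to 6% MT- UMIs, 0.041 with only those groups fitted, and -0.74 to 0.51 leaving out 1 library. MIAT (-0.09) gave 0.085, 0.16, 0.011, 0.043, 0.27, 0.0070 and 0.10 with total counts, without a filter, with at least 300 genes, in all barcodes, without the 5% of cells with most UMIs, without mitochondrial and ribosomal protein genes and without shared barcodes, and -0.24 to 0.10 leaving out 1 library. MEG3 (-0.87) gave 0.0026 with 2 to 6% MT- UMIs. None of these values passed the edgeR threshold.

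With a replicate block edgeR called 19 genes for E6R against DMSO. There MALAT1 passed for TSA (0.78, adjusted p = 0.018) and MEG3 for E6R against TSA (-0.86, adjusted p = 0.0303). The labels give the replicates only a shared number. Deviations of same-numbered libraries correlated over 7515 genes with r = 0.242 for DMSO and TSA, 0.564 for DMSO and E6R and 0.166 for TSA and E6R. Shares of positive cells moved beyond 1 SD in 29 of 72 alternatives, cell splits in 2 of 16 and small barcodes in 0 of 8. Depth limits MIAT and H19, at 7 to 52 UMIs per library.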

Other observations

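With 6 of the 8 RNAs counted among them, 110 annotated long noncoding RNA genes had a mean of 20 CPM or more. Of these, 19 rose and 37 fell under TSA, with a median log2 value of -0.31, beside 1586 and 1341 of 7402 protein coding genes at that level (median 0.09). Under E6R against TSA 41 were higher and 20 lower. Long noncoding RNA genes made up 2.07% and 2.33% of UMIs under DMSO, 2.17% and 2.93% under TSA and 1.42% and 1.80% under E6R, and MALAT1 made up 7.53% to 13.9% of those UMIs.

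IGF2, the fetal growth factor that shares its imprinted domain with H19, was read after its values were seen. It had 4.75 ± 0.495 CPM under DMSO, 12.5 ± 6.94 under TSA and 4.73 ± 0.170 under E6R (SD, n = 2). TSA against DMSO gave a log2 value of 1.39 (edgeR adjusted p = 0.0546) and E6R against TSA -1.40 (adjusted p = 0.038), while H19 passed in neither.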
